A study of Homo sapiens with 6 samples.

Results

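The DNA replication machinery is described here as 46 genes, taken from the 19330 genes of a ribosome profiling table by their symbols and not by their values. Earlier results of these data were known when the genes were chosen. They encode the proteins that license and fire replication origins, the 3 replicative DNA polymerases, the sliding clamp and its loader, the factors that protect and mature new strands, and the enzymes that supply deoxynucleotides. The libraries came from K562, a human chronic myelogenous leukemia cell line with erythroid features. Ribosome profiling (Ribo-Seq) sequences the mRNA fragments that ribosomes shield from nuclease, so footprint counts on a gene measure its ribosome occupancy, which depends on both mRNA abundance and translation. Translational efficiency was not analysed here. All cells of both groups carried the lentiviral vector pLentiCRISPRv2 and Cas9. The 3 sgN6AMT1 libraries came from cells with guide RNA against N6AMT1, a methyltransferase that modifies the translation termination factor eRF1, and the 3 sgCtrl libraries from cells with guides against the olfactory receptor genes given in the labels as OR11A1 and OR2M49 (the study's methods name OR11A1, OR2M4 and, as a nontargeting guide, EGFP). Cells were selected with puromycin for 48 h and kept in culture until 10 days after infection. The guide in each library is not given in the sources used here, and no isolation of single clones is described. Replicates were separate lentiviral transductions.

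In every S phase, a cell copies its genome once. The origin recognition complex, CDC6 and CDT1 load the MCM helicase on DNA, and geminin then blocks CDT1 so that no origin is licensed again. CDC45 and GINS turn the loaded helicase on, DNA polymerase α-primase lays down primers, and polymerases δ and ε extend them on the PCNA clamp that replication factor C opens and closes. Proliferating leukemia cells express these genes at high levels, and many of them are transcribed under the control of E2F factors as cells enter S phase.

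The 6 libraries held 1821356 to 2969736 counts each, and 9202 genes had enough counts for a test. Pairs of libraries differed more across groups than within a group, with a chi-square per degree of freedom of 4.89 to 7.04 against 1.25 to 1.68. N6AMT1 itself had footprint counts of 25, 24 and 34 (sgCtrl) against 10, 9 and 8 (sgN6AMT1), and its log2 fold change was -1.51 (standard error 0.31, edgeR adjusted p 6.69e-05). Of 9 listed K562 markers, all had counts in every library, 5 fell (HBZ, TFRC, GATA1, KLF1 and LMO2), 2 rose (HBE1 and TAL1) and 2 did not pass the threshold. The transferrin receptor TFRC stood at 1952 ± 63.0 CPM (counts per 1000000 counts of the scaled library) in sgCtrl and 1551 ± 52.2 in sgN6AMT1 (SD, n = 3 each). The embryonic globin gene HBE1 stood at 3567 ± 232 and 4977 ± 53.0 CPM, and the blood transcription factor genes GATA1 at 310.0 ± 11.8 and 253 ± 15.9 CPM and TAL1 at 41.1 ± 2.69 and 57.3 ± 3.86 CPM (SD, n = 3 each), so the markers went in both directions. Summed T cell markers lay at 33.1 to 41.4 CPM in sgCtrl and 28.5 to 32.6 CPM in sgN6AMT1, and fibroblast markers at 37.2 to 42.4 and 32.0 to 36.9 CPM. For both of these low sums the ranges did not overlap between the groups, and the part of these markers and of the K562 markers in the results was not tested. Each sum lay mostly on 1 gene. In sgCtrl, CD3D had a mean of 35.7 CPM, against 0.46 for CD3E and 2.30 for CD3G. COL1A2 had 31.4 CPM, against 7.44 for COL1A1 and 0.45 for COL3A1. B cell markers did not exceed 1.51 CPM in any library, with MS4A1 at 0 counts in all, and epithelial markers lay at 162 to 189 and 175 to 196 CPM, with KRT5 at 0 counts. Of the epithelial markers, EPCAM had a mean of 177 CPM in sgCtrl and CDH1 one of 0.28 CPM. In bulk libraries, fewer cells in S phase and fewer footprints per cell on these genes cannot be told apart.

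Fewer footprints on several core replication genes were found in N6AMT1-depleted cells, while a smaller set rose. The catalytic subunit of DNA polymerase α, POLA1, fell most (1.98-fold), followed by RFC1, POLE2 and ORC2. MCM3, CDT1, geminin (GMNN), RFC4 and RPA3 were higher. All 46 genes passed the filter on low counts, and the lowest count of any of them in a library was 41. By edgeR's quasi-likelihood test, adjusted by Benjamini-Hochberg over all genes tested with a threshold of 0.05, 18 of the 46 genes (39.1%) changed, against 26.9% of all genes tested. Of these, 13 fell (28.3%, against 13.9% of all genes) and 5 rose (10.9%, against 12.9%). All 46 genes also had a mean of at least 50 counts. When only the 5874 genes with such a mean were tested, 15 of the 46 were called, against 1973 of the 5874. The share called in either direction was then no higher for the replication genes than for all genes. Lower genes made up 10 of these 15 calls and 51.0% of the 1973.

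The median log2 fold change of the 46 genes was -0.09, and that of all genes tested was 0.01. A negative value was found for 34 of the 46 and for 49% of all genes. Among the genes that changed, the median absolute log2 fold change was 0.26 for the replication genes and 0.44 for all genes. The 3 libraries of each group did not overlap for 19 replication genes, 15 of them lower and 4 higher in sgN6AMT1, where 19.2% of all genes were lower and 18.4% higher without overlap. Summed over the 46 genes, the footprints came to 9531, 9487 and 9597 CPM in the control libraries against 9026, 9081 and 9058 CPM with sgN6AMT1. The groups did not overlap in this sum. As a share of all counts, without scaling factors, the sum was 0.932% ± 0.0049 for sgCtrl and 0.918% ± 0.0043 for sgN6AMT1 (SD, n = 3 each).

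The number of calls moved with the tool and the scaling. DESeq2 called 9 of the 46 genes, 7 lower and 2 higher, where it called 12.4% of the genes it gave an adjusted p (6.91% lower and 5.49% higher). With total counts in place of trimmed-mean (TMM) factors, 8 replication genes were lower and 6 higher, and the share of lower genes among all calls went from 51.8% to 38.5%. A total of 8 genes stayed past the threshold in the same direction under all 14 alternatives: POLA1, RFC1, POLE2, CDC45, PRIM1 and RRM2 were lower, and MCM3 and CDT1 were higher. Without sgCtrl replicate 3, and without sgN6AMT1 replicate 1, 3 members were higher in place of 5.

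**Figure D1:**
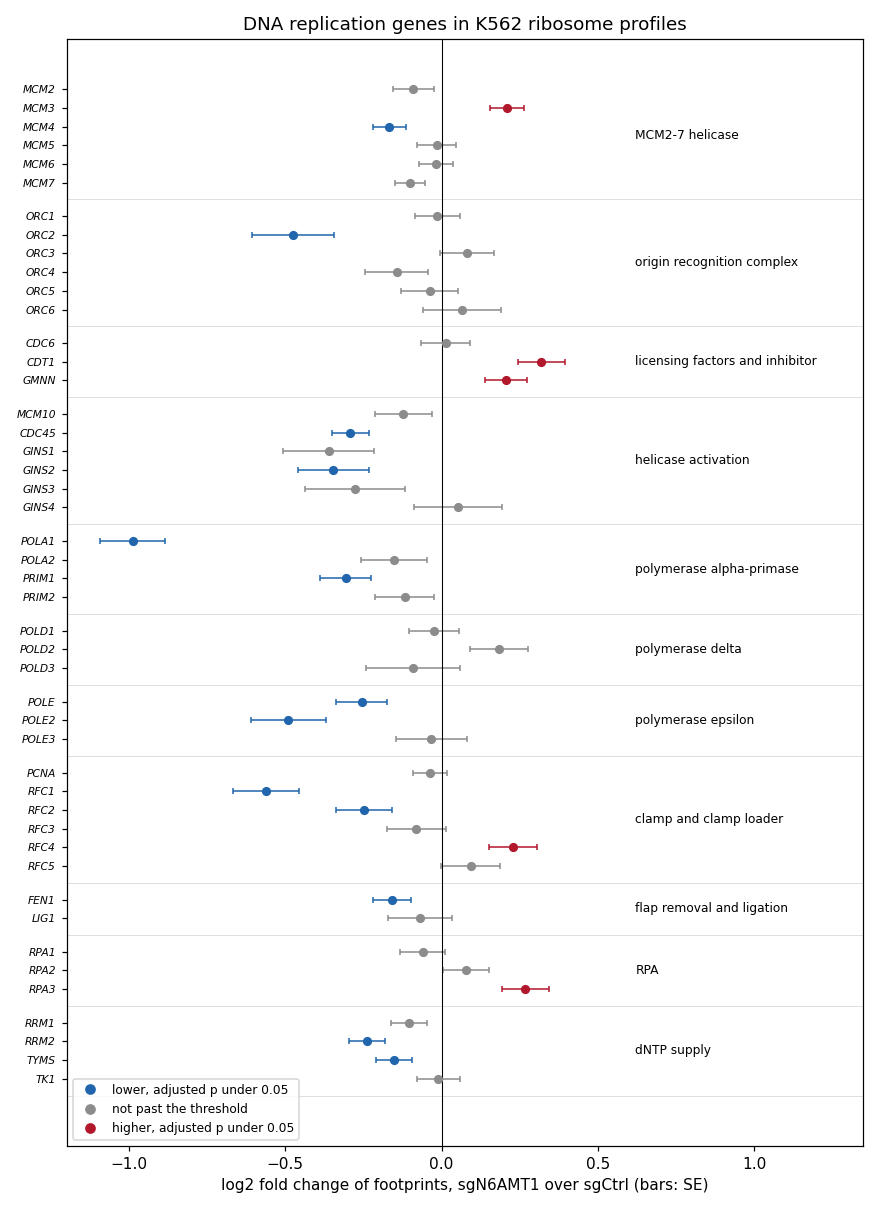
Log2 fold changes of footprints, sgN6AMT1 over sgCtrl, for the 46 replication genes grouped by role, with 1 point per gene and bars for the standard error (SE). Blue points (13 genes) were lower and red points (5 genes) higher past an edgeR adjusted p of 0.05. POLA1 lies farthest from 0, at -0.99.

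The listed promoters and stop codons of these genes were read from the reference, to show what members that moved in opposite directions share. RefSeq windows on GRCh38.p14 reach from 250 bases before to 50 after each transcription start, and 40 of the 46 genes had at least 1. MCM4, MCM5, GINS4, POLD3, RPA2 and RPA3 are not among them. The windows were searched on both strands for the E2F-type letters TTTCGCGC, TTTGGCGC, TTTCCCGC and TTTGCCGC, forms that can overlap each other on opposite strands. A match was found for 19 of the 40 genes (47.5%) and for 3.99% of all 27305 genes with a window. Those 27305 genes were not limited to genes with footprints, unlike the genes tested. It was found for 5 of 12 genes that fell, 3 of 4 that rose and 11 of 24 that passed neither way, so the motif was present in genes of either direction. The letters CCAAT or their reverse complement, a common promoter element, stood in the windows of 24 of the 40 genes (60%). Among these were 8 of 12 that fell and 2 of 4 that rose. Of all genes with a window, 39.7% had these letters.

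The following 30-base stretches show the 1st match in each of the 5 genes that fell and the 3 that rose, 5′ to 3′ on the gene's strand, with the matched letters in capitals. They lie at chrX:24693770-24693799 (plus strand) for POLA1, chr12:132687342-132687371 (minus) for POLE, chr14:49688201-49688230 (minus) for POLE2, chr16:85688967-85688996 (minus) for GINS2, chr18:657603-657632 (plus) for TYMS, chr6:52284898-52284927 (minus) for MCM3, chr16:88803743-88803772 (plus) for CDT1 and chr6:24775322-24775351 (plus) for GMNN.
POLA1: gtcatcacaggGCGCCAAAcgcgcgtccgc
POLE: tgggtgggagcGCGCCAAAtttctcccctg
POLE2: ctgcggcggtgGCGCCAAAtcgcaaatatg
GINS2: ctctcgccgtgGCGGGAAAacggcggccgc
TYMS: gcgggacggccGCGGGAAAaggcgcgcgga
MCM3: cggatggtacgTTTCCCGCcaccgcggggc
CDT1: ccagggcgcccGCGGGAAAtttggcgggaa
GMNN: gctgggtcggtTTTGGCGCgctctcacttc
The matched letters of POLA1, POLE and POLE2 are the same 8 bases, GCGCCAAA, the reverse complement of the form in GMNN. Those of GINS2, TYMS and CDT1 are again alike, GCGGGAAA, the reverse complement of the form in MCM3. A match is a description of letters and not of a bound factor.

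The stop codon is the site that eRF1 reads, so it is shown for the 8 genes that stayed past the threshold under all alternatives. Each sequence gives the last 12 coding bases, the stop codon in capitals and the base after it, from the listed transcript in GENCODE release 44 on GRCh38. The stop codons lie at chrX:24995948-24995950 (plus strand) for POLA1, chr4:39288761-39288763 (minus) for RFC1, chr14:49643652-49643654 (minus) for POLE2, chr22:19518906-19518908 (plus) for CDC45, chr12:56731715-56731717 (minus) for PRIM1, chr2:10129384-10129386 (plus) for RRM2, chr6:52264588-52264590 (minus) for MCM3 and chr16:88808276-88808278 (plus) for CDT1.
POLA1: gccgtgaaatccTAAg
RFC1: agttcgaagaaaTGAa
POLE2: cttcaaggctttTGAg
CDC45: tccctcctgtccTAGg
PRIM1: caaaaagatttcTGAa
RRM2: gatgctgacttcTAAa
MCM3: atcttcctcatcTGAg
CDT1: gaggaggggctgTGAg
All 3 stop codons occur among the genes of this group that fell, and both that rose end in TGA. Over the 46 genes, 26 end in TGA, 11 in TAA and 9 in TAG. Of the 9 TAG genes, 5 fell (CDC45, GINS2, POLE, RFC2 and TYMS) by edgeR, of which DESeq2 called only CDC45. By edgeR 0 of the 9 rose (also 0 at an unadjusted p under 0.05, and 0 by DESeq2). Among all genes tested with TAG, 13.4% fell and 14.1% rose by edgeR. Of the 26 TGA genes, 5 fell and 4 rose, against 12.5% and 12.3% of all genes tested with TGA. Of the 11 TAA genes, 3 fell and 1 rose, against 16.3% and 13.2% of all genes tested with TAA. These counts are small, were looked at after the calls were known, and were not tested.

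The origin recognition complex marks the sites where helicases are loaded. Of its 6 subunits only ORC2, a core subunit, passed the threshold. It had footprint counts of 117, 150 and 121 (sgCtrl) against 84, 123 and 54 (sgN6AMT1), or 56.7 ± 4.35 and 39.8 ± 12.2 CPM (SD, n = 3 each). The sgN6AMT1 libraries spread widely, and replicate 2 lay within the range of sgCtrl. The log2 fold change was -0.48 (standard error 0.13, edgeR adjusted p 0.00363). It moved to -0.32 without sgN6AMT1 replicate 3 (adjusted p 0.0626) and to -0.75 without replicate 2, and DESeq2 did not call it (adjusted p 0.0674). The other subunits had log2 fold changes of -0.14 (ORC4) to 0.08 (ORC3), none past the threshold, and ORC1, the large subunit with ATPase activity, stood at 179 ± 3.28 and 177 ± 11.4 CPM (SD, n = 3 each).

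Of the 3 genes for licensing factors and their inhibitor, CDT1 and GMNN rose. CDT1, which brings the helicase to the origin and is destroyed once S phase begins, had footprint counts of 374, 464 and 318 (sgCtrl) against 418, 502 and 422 (sgN6AMT1). This was a rise from 168 ± 17.1 to 209.7 ± 23.8 CPM (SD, n = 3 each), that is, a log2 fold change of 0.32 (standard error 0.075, edgeR adjusted p 0.00055). The groups overlapped through replicate 1, at 188 CPM in sgCtrl and 183 in sgN6AMT1, and the other sgN6AMT1 libraries lay above all sgCtrl libraries. GMNN, which encodes the CDT1 inhibitor geminin, had footprint counts of 456, 769 and 476 (sgCtrl) against 712, 592 and 511 (sgN6AMT1). Its log2 fold change was 0.21 (standard error 0.067, edgeR adjusted p 0.0137), with overlap between the groups. It did not pass without sgN6AMT1 replicate 1 (log2 0.12, adjusted p 0.227), without sgCtrl replicate 1 or 3 (0.16 and 0.18, adjusted p 0.0834 and 0.0731) and in DESeq2 (adjusted p 0.149). CDC6, the ATPase that loads the helicase with ORC, stood at 152 ± 6.05 and 154 ± 16.1 CPM (SD, n = 3 each), that is, a log2 fold change of 0.01 (edgeR adjusted p 0.928).

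MCM2 to MCM7 form the ring of the replicative helicase, and calls among them went in both directions. MCM3 rose, MCM4 fell, and the remaining 4 did not pass the threshold. MCM3 had footprint counts of 898, 1233 and 930 (sgCtrl) against 1161, 1133 and 1003 (sgN6AMT1), which is 445 ± 17.5 and 514 ± 27.9 CPM (SD, n = 3 each). All 3 sgN6AMT1 libraries lay above all sgCtrl libraries after scaling, and the log2 fold change was 0.21 (standard error 0.055, edgeR adjusted p 0.00193). MCM4 had footprint counts of 1290, 1905 and 1251 (sgCtrl) against 1242, 1374 and 1059 (sgN6AMT1). Its fall from 640.5 ± 21.0 to 571 ± 24.9 CPM (SD, n = 3 each), that is, a log2 fold change of -0.17 (standard error 0.052, edgeR adjusted p 0.0102), was called by DESeq2 as well (adjusted p 0.0306). It was not called without sgCtrl replicate 2 (adjusted p 0.0552), without sgN6AMT1 replicate 1 (adjusted p 0.0676) or with total counts (log2 -0.11, adjusted p 0.0992).

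The other helicase subunits did not pass the threshold. MCM7 had footprint counts of 1995, 2776 and 2023 (sgCtrl) against 2007, 2173 and 1722 (sgN6AMT1), with a log2 fold change of -0.10 (standard error 0.048, edgeR adjusted p 0.108) and no overlap between the groups. It was called only when trends on the length of the coding sequence (CDS) and GC content were removed (log2 -0.14, adjusted p 0.0019). MCM2 had footprint counts of 572, 764 and 525 (sgCtrl) against 547, 567 and 511 (sgN6AMT1) (log2 -0.09, SE 0.065). MCM5 had footprint counts of 544, 772 and 549 (sgCtrl) against 575, 627 and 514 (sgN6AMT1) (log2 -0.02, SE 0.063), and MCM6 had 892, 1329 and 957 against 1035, 1037 and 846 (log2 -0.02, SE 0.055). The groups overlapped for these 3 genes.

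Subunits of the helicase also differed from each other within control cells. Per kilobase (kb) of CDS, the footprint level in sgCtrl ran from 99.5 ± 5.64 CPM per kb for MCM2 to 457 ± 11.5 for MCM7 (SD, n = 3 each), a ratio of 4.59, although the ring holds its 6 subunits in equal number. In sgN6AMT1 the ratio was 4.54. As a share of the summed level of the ring, MCM3 took 13.5%, 13.1% and 13.9% in the control libraries against 16.5%, 15.3% and 16.6% with sgN6AMT1. MCM4 went the other way, from 19.2%, 20.0% and 18.5% to 17.5%, 18.3% and 17.3%. Neither share overlapped between the groups.

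CDC45 and the 4 GINS proteins join the MCM ring to form the active helicase. CDC45 had footprint counts of 862, 1168 and 910 (sgCtrl) against 862, 787 and 601 (sgN6AMT1), and fell from a mean of 428 ± 23.4 CPM to 348 ± 26.7 (SD over 3 libraries each). Every sgN6AMT1 library lay below every sgCtrl library, and the log2 fold change was -0.29 (standard error 0.059, edgeR adjusted p 4.42e-05). GINS2 had footprint counts of 163, 190 and 152 (sgCtrl) against 122, 134 and 115 (sgN6AMT1), a log2 fold change of -0.35 (standard error 0.11, edgeR adjusted p 0.0146). Its groups did not overlap, yet the call was lost without sgCtrl replicate 1 (log2 -0.27, adjusted p 0.0961), without sgN6AMT1 replicate 1 (-0.29, adjusted p 0.0745) and in DESeq2 (adjusted p 0.111).

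GINS1 had footprint counts of 75, 108 and 77 (sgCtrl) against 70, 56 and 62 (sgN6AMT1), and its adjusted p of 0.0518 (log2 -0.36, SE 0.14, edgeR) just missed the threshold. Without sgN6AMT1 replicate 3 the log2 fold change was -0.46 and the adjusted p 0.0229, without sgN6AMT1 replicate 2 they were -0.23 and 0.333, and DESeq2 gave an adjusted p of 0.303. GINS3 had a log2 fold change of -0.28 (SE 0.16) and GINS4 one of 0.05 (SE 0.14). These 3 genes had the fewest counts of the helicase genes, 41 to 108 in a library, and small changes were not detectable at this depth. MCM10, which helps to fire the assembled helicase, had a log2 fold change of -0.12 (standard error 0.092, edgeR adjusted p 0.346).

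DNA polymerase α-primase makes the RNA-DNA primers that begin every new strand. POLA1, its polymerase subunit (listed transcript at chrX:24693918-24996986 on GRCh38, plus strand, 37 exons), had footprint counts of 240, 368 and 238 (sgCtrl) against 143, 112 and 139 (sgN6AMT1). The scaled level fell from a mean of 122 ± 4.85 CPM to 62.2 ± 13.5 (SD over 3 libraries each), and the highest sgN6AMT1 library, at 75.5 CPM, lay well below the lowest sgCtrl library, at 117 CPM. This was a log2 fold change of -0.99 (standard error 0.10, edgeR adjusted p 2.16e-13), or 1.98-fold lower. It ran from -1.14 to -0.83 over the 14 alternatives, and DESeq2 gave -0.99 (adjusted p 3.29e-10).

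PRIM1, the catalytic primase subunit, had footprint counts of 328, 435 and 314 (sgCtrl) against 312, 295 and 207 (sgN6AMT1). It fell from a mean of 157 ± 7.54 CPM to 126 ± 12.3 (SD over 3 libraries each), without overlap, at a log2 fold change of -0.31 (standard error 0.081, edgeR adjusted p 0.00212). HSD17B6 overlaps the CDS of PRIM1 on the opposite strand and a gene without a symbol on the same strand, so the assignment of some reads is uncertain. POLA2, the accessory subunit, and PRIM2, the large primase subunit, had log2 fold changes of -0.15 (SE 0.11) and -0.12 (SE 0.094), neither past the threshold. Within the complex, POLA1 took 10.2%, 11.0% and 10.2% of the summed level per kb of CDS in the control libraries against 6.2%, 5.11% and 8.42% with sgN6AMT1. PRIM1, the subunit with the highest level per kb, exceeded POLA1 4.50-fold in sgCtrl and 7.06-fold in sgN6AMT1.

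**Figure D2:**
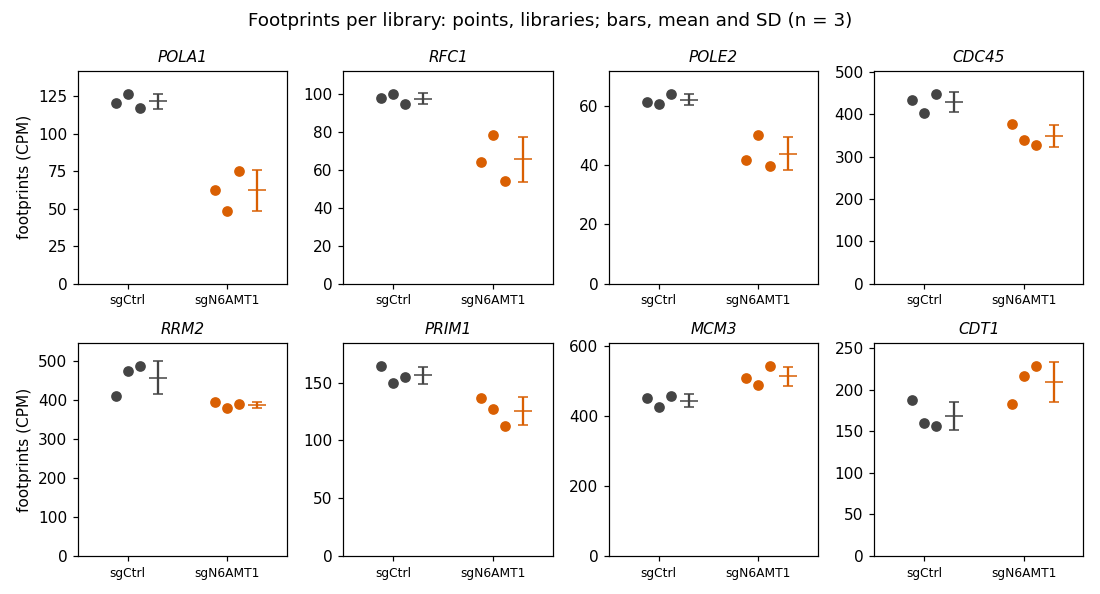
Footprints in CPM, scaled with TMM factors, in each of the 3 sgCtrl (grey) and 3 sgN6AMT1 (orange) libraries for the 8 replication genes past the threshold under all alternatives. Points are libraries, and bars give the mean and SD. POLA1 shows the largest ratio between the groups, and CDT1 is the only gene of the 8 whose groups overlap.

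Polymerase ε copies the leading strand and polymerase δ the lagging strand. POLE2, the B subunit of polymerase ε, had footprint counts of 122, 176 and 130 (sgCtrl) against 95, 116 and 73 (sgN6AMT1). It fell from a mean of 62.0 ± 1.82 CPM to 43.8 ± 5.57 (SD over 3 libraries each), without overlap, a log2 fold change of -0.49 (standard error 0.12, edgeR adjusted p 0.000837). POLE, the catalytic subunit, had footprint counts of 301, 436 and 289 (sgCtrl) against 286, 300 and 214 (sgN6AMT1), a log2 fold change of -0.26 (standard error 0.081, edgeR adjusted p 0.0117). The groups did not overlap for POLE. Its call was lost without sgN6AMT1 replicate 3 (adjusted p 0.054), with total counts (adjusted p 0.0545) and in DESeq2 (adjusted p 0.0812). POLE3, a histone-fold subunit, stood at 62.2 ± 7.44 and 61.7 ± 2.70 CPM (SD, n = 3 each), and C9orf43 overlaps its CDS on the opposite strand.

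Of the polymerase δ subunits among the 46 genes, POLD1, POLD2 and POLD3, none passed the threshold in edgeR or DESeq2, and none had an unadjusted p under 0.05 in edgeR. The catalytic subunit POLD1 had a log2 fold change of -0.02 (SE 0.080), POLD2 one of 0.18 (standard error 0.093, edgeR adjusted p 0.141) and POLD3 one of -0.09 (SE 0.15). POLD2 had footprint counts of 191, 254 and 202 (sgCtrl) against 235, 247 and 203 (sgN6AMT1), with no overlap after scaling, and was called with total counts only (log2 0.24, adjusted p 0.0462). Whether the fold changes of polymerases δ and ε differ was not tested.

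Replication factor C loads the PCNA clamp and is made of the large subunit RFC1 and the small subunits RFC2 to RFC5. RFC1 (chr4:39287456-39366375, minus strand, 25 exons) had footprint counts of 195, 291 and 192 (sgCtrl) against 147, 181 and 100 (sgN6AMT1). It fell from a mean of 97.6 ± 2.85 CPM to 65.6 ± 12 (SD over 3 libraries each), and its highest sgN6AMT1 library (78.2 CPM) lay below its lowest sgCtrl library (94.7 CPM). The log2 fold change of RFC1 was -0.56 (standard error 0.11, edgeR adjusted p 1.24e-05), and it ran from -0.71 to -0.46 over the alternatives.

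RFC4 moved the other way. It had footprint counts of 292, 420 and 290 (sgCtrl) against 410, 364 and 318 (sgN6AMT1), with no overlap after scaling and a log2 fold change of 0.23 (standard error 0.077, edgeR adjusted p 0.0174). This call was lost without sgN6AMT1 replicate 1 (0.18, adjusted p 0.115), without sgCtrl replicate 2 or 3 (0.23 and 0.22, adjusted p 0.0586 and 0.0543) and in DESeq2 (adjusted p 0.15). RFC2 had footprint counts of 208, 348 and 258 (sgCtrl) against 238, 222 and 177 (sgN6AMT1), a log2 fold change of -0.25 (standard error 0.091, edgeR adjusted p 0.0315). Its groups did not overlap. The RFC2 call was lost in DESeq2 (adjusted p 0.171), with total counts and with a mean of at least 50 counts (edgeR adjusted p 0.0519). Without sgCtrl replicate 2 or 3 or sgN6AMT1 replicate 2 or 3, its edgeR adjusted p lay between 0.0733 and 0.159.

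RFC3 and RFC5 did not pass the threshold, at log2 fold changes of -0.08 (SE 0.095) and 0.09 (SE 0.094). As a share of the summed level of the 5 subunits per kb of CDS, RFC1 took 6.38%, 6.28% and 5.65% in the control libraries against 3.88%, 4.96% and 3.52% with sgN6AMT1, and RFC4 took 30.2%, 28.6% and 27.0% against 34.2%, 31.5% and 35.4%. Both shares were without overlap. The level of RFC4 exceeded that of RFC1 4.69-fold in sgCtrl and 8.18-fold in sgN6AMT1. PCNA, the clamp itself, had the highest level per kb of all 46 genes and a log2 fold change of -0.04 (standard error 0.053, edgeR adjusted p 0.664), at 519.9 ± 7.95 and 507 ± 6.16 CPM (SD, n = 3 each).

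**Figure D3:**
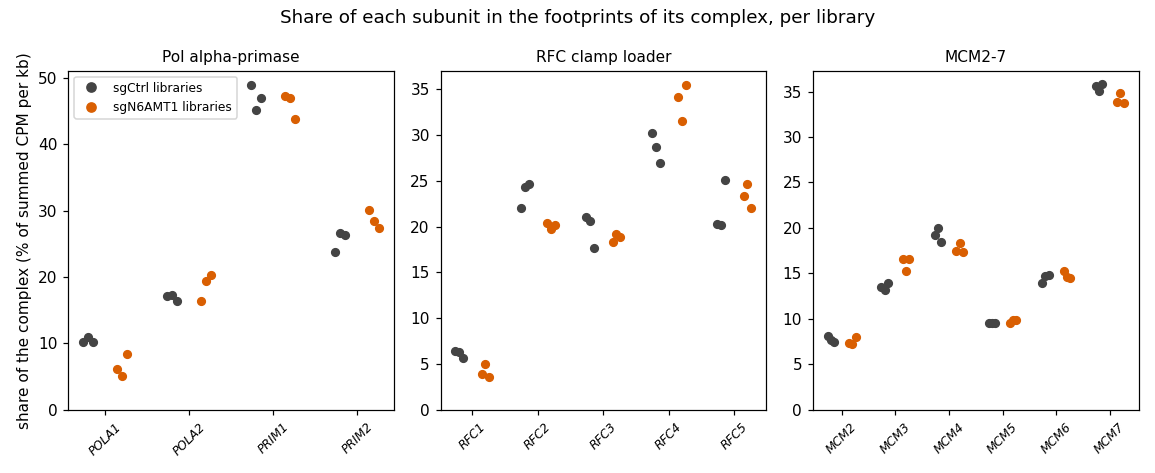
Share of each subunit, in percent of the summed CPM per kb of CDS of its complex, for DNA polymerase α-primase, replication factor C and the MCM ring, with 1 point per library (grey, sgCtrl; orange, sgN6AMT1). POLA1 and RFC1 took a smaller share in all 3 sgN6AMT1 libraries, and MCM3 and RFC4 a larger one.

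FEN1, the flap endonuclease that trims Okazaki fragments, had footprint counts of 655, 960 and 692 (sgCtrl) against 658, 707 and 559 (sgN6AMT1). The groups did not overlap after scaling, and the log2 fold change was -0.16 (standard error 0.060, edgeR adjusted p 0.0391). This value lay close to the threshold and passed it without sgN6AMT1 replicate 3 (adjusted p 0.0412), but not without any other library (adjusted p 0.0528 to 0.139) nor in DESeq2 (adjusted p 0.128). The edgeR call was also lost with upper-quartile factors (adjusted p 0.063), total counts (0.203), a mean of at least 50 counts (0.0772) and a replicate block (0.0715). LIG1, the ligase that seals the fragments, had a log2 fold change of -0.07 (SE 0.10).

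Replication protein A (RPA) coats single-stranded DNA. Its smallest subunit, RPA3, had footprint counts of 293, 438 and 337 (sgCtrl) against 448, 435 and 317 (sgN6AMT1), and rose from a mean of 155 ± 10.0 CPM to 185 ± 12.3 (SD over 3 libraries each) without overlap. The log2 fold change was 0.27 (standard error 0.075, edgeR adjusted p 0.00369). It stayed past the threshold without each library in turn, and DESeq2 gave an adjusted p of 0.0673. RPA1 and RPA2, the larger subunits, had log2 fold changes of -0.06 (SE 0.073) and 0.08 (SE 0.074).

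Among the enzymes of deoxynucleotide supply, RRM2, the small subunit of ribonucleotide reductase that limits its activity in S phase (processed copies of which are annotated, so its count is uncertain) had footprint counts of 815, 1377 and 990 (sgCtrl) against 902, 880 and 718 (sgN6AMT1). It fell from a mean of 457 ± 42.1 CPM to 388 ± 7.67 (SD over 3 libraries each), a log2 fold change of -0.24 (standard error 0.058, edgeR adjusted p 0.000719). Replicate 1 of sgCtrl was the lowest control library, at 409 CPM, and still lay above the highest sgN6AMT1 library, at 395 CPM. RRM1, the large subunit, stood at 437 ± 11.0 and 406 ± 23.0 CPM (SD, n = 3 each), with an edgeR adjusted p of 0.17.

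TYMS, the thymidylate synthase, had footprint counts of 887, 1350 and 919 (sgCtrl) against 888, 904 and 835 (sgN6AMT1), a log2 fold change of -0.15 (standard error 0.057, edgeR adjusted p 0.0374). Replicate 3 of sgN6AMT1 lay within the range of sgCtrl. The call was lost without sgCtrl replicate 2 or 3 or sgN6AMT1 replicate 1 or 2 (adjusted p 0.0597 to 0.248) and in DESeq2 (adjusted p 0.145). In edgeR it was also lost with upper-quartile factors (adjusted p 0.0678), total counts (0.209), a mean of at least 50 counts (0.0879) and a replicate block (0.0589). ENOSF1 and TYMSOS overlap the CDS of TYMS on the opposite strand. TK1, the thymidine kinase of the salvage pathway, had a log2 fold change of -0.01 (SE 0.070).

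Levels per kb of CDS spanned a 30.8-fold range over the 46 genes in sgCtrl, from 21.6 ± 0.70 CPM per kb for POLE to 664 ± 10.2 for PCNA (SD, n = 3 each). PCNA, TYMS, MCM7, RRM2 and RPA3 came first, and POLE, POLD3, POLA1 and RFC1 last. Of the 45 pairs of neighbours in this order, 33 overlapped in their sgCtrl libraries and 12, PCNA and TYMS among them, did not. POLA1, 3rd from the bottom in sgCtrl at 27.6 ± 1.10 CPM per kb, was at the bottom in sgN6AMT1 at 14.1 ± 3.08 (SD, n = 3 each). POLA1, POLE and RFC1 had the lowest level and the longest CDS of their complexes.

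**Figure D4:**
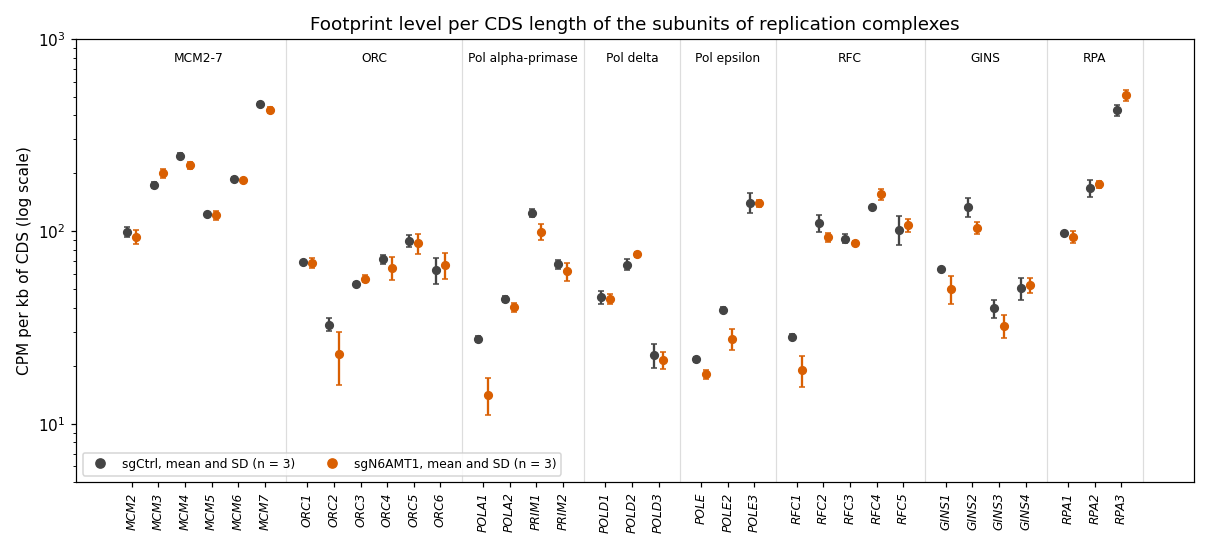
Footprint level in CPM per kb of CDS (log scale) for the subunits of 8 replication complexes, as mean and SD of 3 sgCtrl (grey) and 3 sgN6AMT1 (orange) libraries. Within control cells, subunits of the same complex differed, by 2.73-fold in the origin recognition complex and by 6.54-fold in polymerase ε, and POLA1 had the lowest level of all in sgN6AMT1.

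The median CDS length was 1581 bases for the 13 genes that fell, 1467 for the 28 not called and 1089 for the 5 that rose. Over the 46 genes, the Spearman correlation between CDS length and log2 fold change was -0.18, and over 8607 genes tested it was -0.13. The genes share libraries and are not independent, so these values are descriptions. When trends of each library on CDS length and GC content were removed, the correlation over the 46 genes was -0.03. Of the 46 genes, 21 then passed the threshold (16 lower and 5 higher), and POLA1, RFC1 and POLE2 stayed lower. Calls among all genes also moved toward lower. With trends removed, 2523 of 8607 genes were called. The share of lower genes among all calls was 59.1%, against 51.8% without this removal. The part of this wider shift in the calls of the replication genes was not tested.

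The other genes of the pathway were read from 7 lists that hold no member of the machinery above. Of their 89 genes, 85 were tested, and 27 passed the threshold (31.8%, against 26.9% of all genes), with a median log2 fold change of -0.15. Lower were 21 (24.7% of the 85, against 13.9% of all genes) and higher 6 (7.06%, against 12.9%). RRM2B and LIN9 were not analysed here, and E2F1 and LIN37 had too few counts for a test. Without sgN6AMT1 replicate 2 the calls numbered 17 of 86, 14 lower and 3 higher, where 1859 of 9277 genes were called. DESeq2 gave 14 of 87, 13 lower and 1 higher, where it called 12.4% of all genes with an adjusted p. With a mean of at least 50 counts, 17 of 68 were called, against 1973 of 5874 genes.

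Chromatin assembly and maintenance of DNA methylation behind the fork held the most calls. Of 12 genes, 8 fell (66.7%, against 13.9% of all genes) and 1 rose (8.33%, against 12.9%), with 5 lower without sgN6AMT1 replicate 2. CHAF1B, a subunit of the histone chaperone CAF-1, had footprint counts of 142, 242 and 167 (sgCtrl) against 93, 98 and 84 (sgN6AMT1), a log2 fold change of -0.89 (standard error 0.12, edgeR adjusted p 8.39e-10). It lies on chromosome 21, as does the cut gene N6AMT1, and the part of that position in the value was not tested. TONSL, which reads new histones, fell by 0.55 on the log2 scale, and ASF1B, a histone chaperone of dividing cells, rose by 0.39, a call that DESeq2 did not make.

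Among 11 genes of origin firing, 3 fell (27.3%, against 13.9% of all genes) and 0 rose (against 12.9%) by edgeR. In either direction, 27.3% of the list was called, close to the 26.9% of all genes. An unadjusted p under 0.05 was found for 5, and 2 fell and 0 rose by DESeq2. RECQL4, a helicase needed for firing, fell by 0.73 on the log2 scale (edgeR adjusted p 8.89e-06) and DONSON, a further firing factor, by 0.66 (adjusted p 3.32e-06), DONSON being another gene of chromosome 21. MCMBP, which binds MCM proteins, was lower by a log2 fold change of -0.24, a call lost without 5 of the 6 libraries, sgCtrl replicate 2 being the exception. The MCMBP call was also lost in DESeq2 and with upper-quartile factors, total counts, a mean of at least 50 counts or a replicate block. Of 18 fork accessory factors, 6 fell (33.3%, against 13.9% of all genes) and 2 rose (11.1%, against 12.9%). POLD4, the small subunit of polymerase δ, had footprint counts of 12, 16 and 8 (sgCtrl) against 19, 32 and 27 (sgN6AMT1) (log2 1.21, SE 0.29, edgeR adjusted p 0.000683), and was the gene of the 7 lists that rose most. CHTF18, of the alternative clamp loader, had a log2 fold change of -0.77 (edgeR adjusted p 0.00313), lost without sgN6AMT1 replicate 1 and in DESeq2, and TRAIP, a ubiquitin ligase at forks, one of 0.61 (edgeR adjusted p 0.0206), lost in DESeq2 and without replicate 2 of either group. The list then held 1 gene that rose. Of its genes that fell, CLSPN (log2 -0.39), TIPIN (-0.49), DNA2 (-0.51) and TOP2A (-0.31) kept the call in every alternative. CHTF18 and RNASEH2B did not.

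The remaining lists held fewer calls. In nucleotide supply, CMPK1 (log2 -0.29) and NME1 (-0.15) fell and DUT rose (0.16) of 11 genes tested. As shares, 18.2% were lower and 9.09% higher, against 13.9% and 12.9% of all genes. Without sgCtrl replicate 3 or sgN6AMT1 replicate 2 neither fall was called. NME1 was also not called without sgCtrl replicate 1 or sgN6AMT1 replicate 3. It was lost as well with upper-quartile factors, total counts, a mean of at least 50 counts or a replicate block. DUT was not called without replicate 1 or 2 of either group, with no filter on low counts, with a replicate block or with trends removed. DESeq2 called none of CMPK1, NME1 and DUT. For the turnover of licensing factors, SKP2 (-0.56) and DDB1 (-0.14), which belong to ubiquitin ligases, were lower among 7 genes (28.6%, against 13.9% of all genes). In that list 0 rose (against 12.9%). In either direction, the 28.6% called lay close to the 26.9% of all genes. The DDB1 call was lost in DESeq2 (adjusted p 0.0673), with upper-quartile factors, with total counts or with a mean of at least 50 counts. It was also lost without sgCtrl replicate 1, sgN6AMT1 replicate 1 or sgN6AMT1 replicate 2. Of 15 E2F and DREAM regulators tested, 0 were lower by edgeR or DESeq2, against 13.9% and 6.91% of all genes. LIN52 (1.00) and LIN54 (0.51), both DREAM subunits and the only 2 with an unadjusted p under 0.05, were higher (13.3%, against 12.9% of all genes). DESeq2 called neither, and LIN54 was lost without replicate 2 or 3 of either group. Their counts were low: 11, 18 and 9 (sgCtrl) against 23, 27 and 21 (sgN6AMT1) for LIN52, and 33, 38 and 30 against 43, 56 and 35 for LIN54. With a mean of at least 50 counts, 0 of the 9 genes left were higher, and with no filter on low counts 1 was. Without sgCtrl replicate 2, TFDP2, the partner of E2F factors, was lower. None of 11 fork checkpoint genes passed edgeR's or DESeq2's threshold (against 26.9% and 12.4% of all genes). Only CHEK1 had an unadjusted p under 0.05 in edgeR. The median log2 fold change of this list was -0.16, against 0.01 for all genes. Only 6 of the 11 genes had a mean of at least 50 counts, so small changes in the others were hard to detect. With trends on CDS length and GC content removed, 2 of 10 genes were lower. Without sgCtrl replicate 1, and without sgN6AMT1 replicate 3, 1 gene of that list was lower (RAD9A and CHEK1, respectively).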

How the data were processed

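The authors trimmed adapters with cutadapt, mapped reads to GRCh38 with HISAT2, removed rRNA and tRNA reads, mapped the rest to 1 canonical transcript per gene with bowtie2 and assigned P-sites with riboWaltz. They also counted overlaps with an annotation for DESeq2. The deposited values are whole-number counts per transcript, not normalized, and which of these counts they are is not given in the sources used here. Molecular identifiers are not mentioned, so reads are not independent molecules.

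Genes passing edgeR 4.0.16's filterByExpr (minimum count 10, R 4.3.3) were fitted over all 6 libraries with TMM factors and compared with the robust quasi-likelihood F test, 2-sided, without covariates. The SE follows from the F statistic. CPM use the TMM-adjusted library size, and levels per kb divide by the CDS of the listed transcript, as annotated in GENCODE release 44 on GRCh38 (17687 of 19330 listed transcripts matched, 91.5%, with all 46 members). The common biological coefficient of variation was 4.36%. Alternatives were DESeq2 1.42.0, other scaling and filters, a replicate block and leaving out libraries in turn. Removal of length and GC trends (loess, span 0.5) was chosen after seeing the data. Members and lists were chosen with earlier results of these data known. By rule, any member may be named, and counts per library are printed for N6AMT1, MCM2 to MCM7, called members that changed by 0.3 or more (log2) or in the rarer direction, and members whose call changed with DESeq2 or a left-out library. Up to 3 called genes of each pathway list, by size of change, are named. The counts of CDC45, RRM2 and POLD2, promoter letters, stop codons and subunit shares were chosen after values were seen. So was the naming of TFDP2, RAD9A, CHEK1, CLSPN, TIPIN, DNA2, TOP2A and RNASEH2B. Processed copies of FEN1, ORC1, PCNA, POLD2, RFC3, RFC5, RPA2, RPA3, RRM2 and TYMS are annotated, and antisense genes or genes on the same strand overlap GINS3, GINS4, LIG1, MCM2, POLA2, POLD1, RFC5 and RRM1, so their counts may include reads of these. A further K562 marker, and the sum that includes it, are not reported here.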

Additional observations from a re-analysis of the deposited data

How the results depend on the processing

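Over 14 alternatives, 10 of the 18 replication genes called lost the call at least once and 4 others gained one. No called gene turned its direction. DESeq2 called 9 members (7 lower, 2 higher) and 1329 genes (741 lower, 588 higher), and in the pathway lists 14 genes (13 lower, 1 higher). Total counts gave 8 members lower, a member median of -0.031 and summed CPM of 9360 in sgCtrl and 9228 in sgN6AMT1. The median of all genes moved as well, from 0.006 with TMM factors to 0.061 with total counts. Upper-quartile factors gave 9096 CPM in sgN6AMT1. A mean of at least 50 counts gave 15 of the 46 members (10 lower, 5 higher), 1973 of 5874 genes (51.0% of them lower) and 17 of 68 pathway genes (2 higher). Its member median was -0.060, and it left N6AMT1 out. Without 1 library, 12 to 16 members were called, 3 to 5 of them higher, 17 to 25 pathway genes were called (3 to 5 higher), and the member median lay between -0.10 and -0.064. Same-numbered libraries did not deviate together (correlations of -0.06, 0.02 and 0.02), so the replicate block serves as an alternative only: it gave 16 members and 2390 genes.

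Uncalled members near 0 changed sign, none past the threshold, and the cause was not tested. With total counts, their log2 fold changes stood for MCM5 at 0.039, MCM6 at 0.036, ORC1 at 0.042, ORC5 at 0.016, POLD1 at 0.031, POLE3 at 0.023, PCNA at 0.018 and TK1 at 0.045. With a mean of at least 50 counts, they stood for MCM5 at 0.0099, MCM6 at 0.0069, ORC1 at 0.012, POLD1 at 0.0015 and TK1 at 0.016, and with upper-quartile factors for TK1 at 0.0029. With trends removed, they stood for GINS4 at -0.030 and POLD1 at 0.0070. Without each library in turn, the values ran for MCM5 from -0.049 to 0.025, ORC1 from -0.066 to 0.032, ORC5 from -0.15 to 0.019, ORC6 from -0.072 to 0.18, CDC6 from -0.078 to 0.062, GINS4 from -0.036 to 0.13, POLD1 from -0.082 to 0.034, POLE3 from -0.095 to 0.083, LIG1 from -0.12 to 0.0048, RPA2 from -0.019 to 0.12 and TK1 from -0.073 to 0.075.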
